A study of Homo sapiens with 18 samples.

Results

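The core genes of the circadian clock were followed in neuroblastoma cells that carried hairpins against AHR. The members were 10 genes chosen by symbol from the 39368 genes of each count table: CLOCK, PER1, PER2, PER3, CRY1, CRY2, NR1D1, NR1D2, DBP and BHLHE40. All 10 were found in both tables, and all 10 passed the expression filter in every fit. RNA sequencing had been done in 2 established lines of human neuroblastoma, BE2C and Kelly, whose MYCN oncogene is amplified. In each line the groups were cells with the short hairpin RNA shAhR-1 against AHR, cells with a second hairpin, shAhR-2, and control cells with the lentiviral vector pLKO-GFP. There were 6 groups of 3 libraries, and the 2 hairpins of a line were set against the same 3 control libraries. Nothing in the labels tells whether replicates are separate cultures, so p-values refer to the scatter among these libraries, which could be technical only. No hour of harvest and no synchronisation of the cells is given in the sources used here, so each value is a level and not a rhythm. The phase or mix of phases behind a value is unknown and could differ between groups.

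The mammalian clock is a feedback loop of transcription. CLOCK and BMAL1 (gene ARNTL), which like the aryl hydrocarbon receptor belong to the bHLH-PAS family of transcription factors, bind E-box sequences as a dimer and activate the PER, CRY, NR1D and DBP genes. PER and CRY proteins return to repress that dimer, the REV-ERB receptors encoded by NR1D1 and NR1D2 repress ARNTL and other genes with ROR elements, and DBP and BHLHE40 act on the genes of the loop through D-boxes and E-boxes. The aryl hydrocarbon receptor, encoded by AHR, is activated by small ligands and binds a different core sequence, the xenobiotic response element.

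Promoter sequences of the members that fell in all 4 hairpin comparisons (PER1 and PER3) and of the E-box-rich window of NR1D2, which moved in opposite directions with the hairpins, are shown because the loop acts through short motifs in such sequences. They are RefSeq sequences of GRCh38.p14, read 5′ to 3′ on the strand of the gene, and capitals mark an E-box (CACGTG) or a D-box (TTANGTAA).
PER1 (chr17:8152455-8152654, minus strand): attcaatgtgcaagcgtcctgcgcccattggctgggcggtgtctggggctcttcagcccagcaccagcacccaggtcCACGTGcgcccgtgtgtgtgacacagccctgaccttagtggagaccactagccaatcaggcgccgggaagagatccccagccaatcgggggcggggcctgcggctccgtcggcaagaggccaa
PER3 (chr1:7784041-7784290, plus strand): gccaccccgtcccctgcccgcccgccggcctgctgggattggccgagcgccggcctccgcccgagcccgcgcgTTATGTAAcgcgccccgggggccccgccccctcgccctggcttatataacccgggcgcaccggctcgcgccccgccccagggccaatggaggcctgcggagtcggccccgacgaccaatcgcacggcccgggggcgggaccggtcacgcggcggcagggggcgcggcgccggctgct
NR1D2 (chr3:23945871-23946120, plus strand): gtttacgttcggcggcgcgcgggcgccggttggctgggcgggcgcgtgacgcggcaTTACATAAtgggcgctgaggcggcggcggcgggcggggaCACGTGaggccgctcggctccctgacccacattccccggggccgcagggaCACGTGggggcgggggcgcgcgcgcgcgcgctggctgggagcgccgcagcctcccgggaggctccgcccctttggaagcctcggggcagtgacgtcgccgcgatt

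The PER1 stretch ended 50 bases before the annotated start, and its E-box began 173 bases before the start. The D-box of PER3 began 177 bases before its start. The NR1D2 window held E-boxes that began 155 and 105 bases before the start and a D-box that began 194 bases before it. The starts are those of RefSeq. The NR1D2 window shown lies inside the gene as annotated by GENCODE (start 23945260). The PER1 stretch also lies inside its GENCODE gene, which spans 8140472 to 8156506 on the minus strand. Another window of NR1D2 (23945036 to 23945285) and another of PER3 (7784179 to 7784428) held no E-box or D-box and are not shown. CLOCK also moved in opposite directions with the hairpins in both lines. Its 2 windows held no E-box or D-box and are not shown either. The motifs were searched on both strands in the 250 bases before each start, in 14 windows for the 10 members. An E-box was present in 3 of the 14 windows (PER1, NR1D2 and BHLHE40), against 6.34% of 35116 windows of all genes. A D-box was present in 2 of the 14 windows (PER3 and NR1D2), against 1.98% of windows. The ROR element TAGGTCA was found in 1 window, of CRY2 (1.61% of windows), and the cyclic AMP element TGACGTCA in 0 windows (1.65% of windows). The xenobiotic response core GCGTG was found in 7 of the 14 windows, against 32.2% of windows. These belonged to 6 members (CLOCK, PER3, CRY1, NR1D1, NR1D2 and DBP), and the 2 windows of PER3 overlap and share a site. No sites of different motifs overlapped in the windows of the members, and a match is a description of the letters and not a bound site.

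AHR itself was at the edge of detection in these counts. It shares 2373 exon bases (29.4% of its exons) with AC019117.2, a protein-coding gene annotated on the same strand. The effect of that overlap on the counts was not tested. AHR had 8, 0 and 0 counts in BE2C shAhR-1, 0, 0 and 0 in BE2C shAhR-2 and 4, 4 and 6 in BE2C controls. It did not pass the filter in BE2C. In Kelly it had 18, 11 and 22 counts in the libraries labelled shAhR-1, 0, 4 and 0 in shAhR-2 and 4, 26 and 29 in controls. AHR fell in Kelly shAhR-2, with a log2 fold change of −3.84 ± 0.81 (SE; adjusted p = 3.41e-05). The first control and the second shAhR-2 library had 4 counts each, so these groups overlapped. Whether the call holds without single libraries was not tested for AHR. The Kelly libraries labelled shAhR-1 gave −0.10 ± 0.54, which missed the threshold (adjusted p = 0.889). No fall of AHR was shown in those libraries or in BE2C shAhR-1, whose first library held more AHR counts than any BE2C control, so a direction drawn from either group is a difference from its control.

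Total counts ranged from 32799682 to 45469353 per library, and levels are given as TMM-scaled CPM, reads scaled to a common library size. The 8 neuroblastoma markers were all detected, with a summed level of 3111 to 3182 CPM in BE2C shAhR-1, 1689 to 1741 in BE2C shAhR-2 and 3352 to 3472 in BE2C controls, and of 2919 to 2983 in the Kelly libraries labelled shAhR-1, 3026 to 3079 in Kelly shAhR-2 and 5487 to 5822 in Kelly controls. The 5 Schwann cell markers summed to 2.13 to 3.05, 12.9 to 13.9 and 2.39 to 3.40 CPM in those BE2C groups and to 1.84 to 2.27, 7.23 to 7.39 and 2.32 to 2.80 CPM in those Kelly groups. The 7 fibroblast markers summed to 180 to 188, 296 to 308 and 170 to 173 CPM in BE2C and to 78.9 to 91.0, 111 to 112 and 114 to 121 CPM in Kelly in the same order, with COL1A2 at 0 in the shAhR-2 groups, and the 5 leukocyte markers to at most 0.944 CPM in any library. S100B was at 0 in the Kelly libraries labelled shAhR-1. These markers moved with the hairpins beside the clock genes, and their part in the clock gene results was not tested. In these bulk samples fewer cells of a type and less RNA per cell cannot be told apart. The share of counts from mitochondrial genes was 24.5% ± 0.368, 22.0% ± 2.64 and 19.1% ± 0.303 (SD, n = 3) in BE2C shAhR-1, shAhR-2 and control, and the first BE2C shAhR-2 library stood apart at 25.1%. In Kelly the share was 17.5% ± 0.139 in the libraries labelled shAhR-1, 15.5% ± 0.292 in shAhR-2 and 15.2% ± 0.616 in controls (SD, n = 3), with the shAhR-1 label above every control, and its part in the results was not tested in either line beyond a fit without mitochondrial genes. Without the first BE2C shAhR-2 library the 6 members called in BE2C with shAhR-2 were CLOCK (0.71), PER1 (−1.18), PER3 (−1.49), CRY1 (−0.61), NR1D2 (0.68) and DBP (0.53), the same genes as with it.

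**Figure D1:**
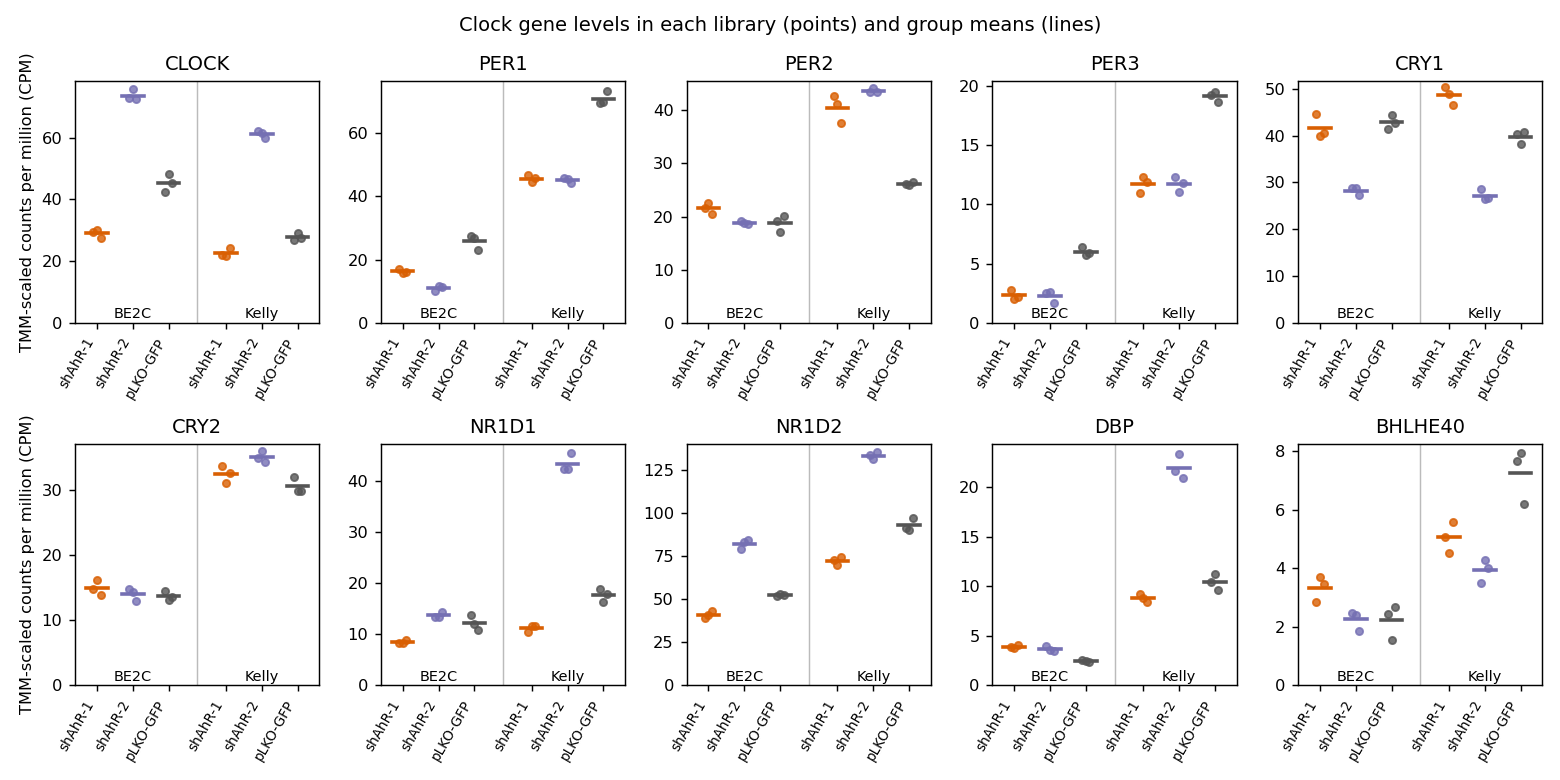
TMM-scaled CPM (y axis, from 0) of the 10 clock genes in each of 18 libraries (points) with group means (lines), by line and construct (x axis). CLOCK and NR1D2 were lowest with shAhR-1 and highest with shAhR-2 in both lines, and PER1 and PER3 were lower with both hairpins than with pLKO-GFP.

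Across the 10 members, the number called at an adjusted p under 0.05 is given beside the share called among all genes, which was large in every comparison. With shAhR-1 in BE2C, 3 members rose, 5 fell and 2 were not called, against 52.3% of 15732 genes called (25.2% up, 27.1% down). With shAhR-2 in BE2C, 3 rose, 3 fell and 4 were not called, against 75.1% of genes (38.0% up, 37.2% down). In the Kelly libraries labelled shAhR-1, 2 rose, 7 fell and 1 was not called, against 60.5% of 15871 genes (29.6% up, 31.0% down). In Kelly shAhR-2, 6 rose and 4 fell, against 75.4% of genes (37.2% up, 38.2% down). The median log2 fold change of the members was −0.20 and 0.03 in BE2C (shAhR-1, shAhR-2) and −0.32 and 0.35 in Kelly, beside 0.01, 0.03, 0.00 and −0.01 over all genes tested. The description below therefore rests on single genes and on the direction each one took.

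CLOCK (chromosome 4, 55427903 to 55547138, minus strand, GRCh38, GENCODE 29), the DNA-binding activator of the loop, moved in opposite directions with the hairpins in both lines. BE2C held 29.3, 30.1 and 27.6 CPM in shAhR-1 cells, 72.9, 75.7 and 72.4 with shAhR-2 and 42.3, 48.1 and 45.5 with pLKO-GFP. The 3 groups did not overlap, with shAhR-1 lowest and shAhR-2 highest. CLOCK fell to 0.638 of the control level with shAhR-1 (−0.65 ± 0.054, adjusted p = 4.94e-12) and rose 1.64-fold with shAhR-2 (0.71 ± 0.051, adjusted p = 2.27e-14). Kelly held 22.1, 21.6 and 24.3 CPM in the libraries labelled shAhR-1, 62.1, 61.5 and 60.1 with shAhR-2 and 27.0, 29.1 and 27.6 with pLKO-GFP, again in 3 groups without overlap. The change was −0.29 ± 0.057 in the libraries labelled shAhR-1 (adjusted p = 1.37e-05) and 1.13 ± 0.052, a 2.19-fold rise, with shAhR-2 (adjusted p = 1.32e-25).

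ARNTL, the gene of the partner BMAL1, was a low gene that went against CLOCK in Kelly. It had 3.76, 3.49 and 2.86 CPM in the Kelly libraries labelled shAhR-1, 0.856, 1.30 and 1.45 with shAhR-2 and 2.03, 1.67 and 2.02 with pLKO-GFP. It was highest in the libraries labelled shAhR-1, where CLOCK was lowest, and exceeded the control there by 0.82 ± 0.20 (adjusted p = 0.00041). With shAhR-2 it fell by 0.66 (adjusted p = 0.00644). In BE2C it had 5.97, 6.72 and 5.53 CPM in shAhR-1 cells, 4.54, 4.97 and 4.85 with shAhR-2 and 6.50, 6.71 and 5.83 with pLKO-GFP. There shAhR-2 gave −0.40 ± 0.13 (adjusted p = 0.0053), and the value with shAhR-1 missed the threshold (−0.07 ± 0.12, adjusted p = 0.676).

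The 3 PER genes, the periodic repressors of the CLOCK and BMAL1 dimer, did not move as a family: PER1 and PER3 fell with both hairpins in both lines, while PER2 rose in Kelly. Of 14680 genes tested in both lines, 8.88% fell in all 4 comparisons as PER1 and PER3 did.

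PER1 (chromosome 17, 8140472 to 8156506, minus strand) held 17.1, 15.8 and 16.0 CPM in BE2C shAhR-1, 9.997, 11.5 and 11.2 in BE2C shAhR-2 and 27.5, 26.9 and 23.0 in BE2C controls. Every hairpin library lay below every control, and the shAhR-2 libraries lay lowest. The change was −0.66 ± 0.081 with shAhR-1 (adjusted p = 1.74e-08) and −1.23 ± 0.083 with shAhR-2 (adjusted p = 5.06e-15). In Kelly PER1 held 46.6, 44.5 and 45.7 CPM in the libraries labelled shAhR-1, 45.7, 45.4 and 44.2 with shAhR-2 and 69.4, 69.7 and 73.3 with pLKO-GFP. The 2 Kelly hairpin groups overlapped and both lay below the controls, at −0.63 ± 0.044 (adjusted p = 5.02e-18) and −0.66 ± 0.043 (adjusted p = 2.46e-19).

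PER3 (chromosome 1, 7784320 to 7845177, plus strand), the lowest of the 3 per kilobase in the controls of both lines, held 2.73, 2.05 and 2.20 CPM in BE2C shAhR-1, 2.54, 2.64 and 1.63 in BE2C shAhR-2 and 6.40, 5.76 and 5.88 in BE2C controls. The hairpin groups overlapped and lay below the controls, at −1.37 ± 0.18 with shAhR-1 (adjusted p = 6.33e-08) and −1.40 ± 0.18 with shAhR-2 (adjusted p = 1.36e-08). In Kelly it held 10.9, 12.3 and 11.9 CPM in the libraries labelled shAhR-1, 12.3, 11.0 and 11.8 with shAhR-2 and 19.2, 19.5 and 18.7 with pLKO-GFP. The same order held there with smaller changes, −0.70 ± 0.079 (adjusted p = 5.57e-11) and −0.72 ± 0.078 (adjusted p = 9.12e-12). UTS2, a gene on the opposite strand that shares 868 exon bases with PER3, had 0 counts in all libraries except for 2 counts in the second Kelly control. The antisense gene Z98884.1 shares a further 482 exon bases (5.95% of the PER3 exons) on the opposite strand. Its part in the PER3 counts was not tested.

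PER2 (chromosome 2, 238244038 to 238290102, minus strand) held 42.6, 41.2 and 37.6 CPM in the Kelly libraries labelled shAhR-1, 43.4, 44.1 and 43.3 in Kelly shAhR-2 and 26.1, 25.8 and 26.6 in Kelly controls. Every Kelly hairpin library lay above every control, at 0.63 ± 0.054 (adjusted p = 9.04e-15) and 0.73 ± 0.053 (adjusted p = 1.21e-17). BE2C held 21.6, 22.6 and 20.5 CPM in shAhR-1 cells, 19.1, 18.8 and 18.6 with shAhR-2 and 19.2, 17.0 and 20.1 with pLKO-GFP. In BE2C, PER2 was not called with shAhR-2 (0.01 ± 0.074, adjusted p = 0.866). The BE2C rise with shAhR-1 was small (0.20 ± 0.074, adjusted p = 0.0245) and was lost without the second control (0.14, adjusted p = 0.156), the first shAhR-1 library (0.18, adjusted p = 0.0777) or the second (0.16, adjusted p = 0.132).

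The cryptochrome genes, whose proteins bind PER proteins and repress CLOCK and BMAL1, also differed from each other. CRY1 (chromosome 12, 106991364 to 107093829, minus strand) held 44.5, 40.0 and 40.5 CPM in BE2C shAhR-1, 28.8, 28.7 and 27.2 in BE2C shAhR-2 and 41.4, 44.4 and 42.6 in BE2C controls. It fell with shAhR-2 (−0.59 ± 0.057, adjusted p = 3.62e-11), while the shAhR-1 and control libraries overlapped (−0.04 ± 0.056, adjusted p = 0.571). In Kelly it held 50.4, 48.8 and 46.5 CPM in the libraries labelled shAhR-1, 28.5, 26.4 and 26.6 with shAhR-2 and 40.3, 38.2 and 40.9 with pLKO-GFP. The Kelly groups were apart, with a rise of 0.29 ± 0.051 in the libraries labelled shAhR-1 (adjusted p = 1.91e-06) and a change of −0.56 ± 0.053 with shAhR-2 (adjusted p = 1.29e-13).

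CRY2 (chromosome 11, 45847118 to 45883248, plus strand) was called in the fewest hairpin comparisons of the 10. It held 14.8, 16.1 and 13.9 CPM in BE2C shAhR-1, 14.8, 14.3 and 13.0 in BE2C shAhR-2 and 14.6, 13.1 and 13.6 in BE2C controls, which all overlapped (0.12 ± 0.086, adjusted p = 0.272, and 0.04 ± 0.085, adjusted p = 0.693). Kelly held 33.7, 31.1 and 32.6 CPM in the libraries labelled shAhR-1, 34.9, 36.0 and 34.4 with shAhR-2 and 32.0, 29.8 and 29.9 with pLKO-GFP. Of the 4 comparisons, CRY2 was called in Kelly shAhR-2 alone (0.19 ± 0.054, adjusted p = 0.00147; 0.09 ± 0.055, adjusted p = 0.16, in the libraries labelled shAhR-1).

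The genes of the REV-ERB receptors, which repress ARNTL and, in the mouse, Cry1 and Nfil3, were lower with shAhR-1 and, apart from NR1D1 in BE2C, higher with shAhR-2. NR1D2 (chromosome 3, 23945260 to 23980618, plus strand) held 39.2, 41.2 and 43.1 CPM in BE2C shAhR-1, 79.2, 83.3 and 84.4 in BE2C shAhR-2 and 51.9, 52.9 and 52.4 in BE2C controls. The 3 groups were apart, at −0.35 ± 0.048 with shAhR-1 (adjusted p = 1.41e-07) and 0.66 ± 0.046 with shAhR-2 (adjusted p = 7.93e-15). In Kelly it held 72.9, 70.0 and 74.4 CPM in the libraries labelled shAhR-1, 134, 131 and 135 with shAhR-2 and 91.4, 90.5 and 97.0 with pLKO-GFP. The order was the same, at −0.35 ± 0.037 (adjusted p = 5.69e-12) and 0.52 ± 0.035 (adjusted p = 1.07e-18). CLOCK and NR1D2 were the 2 members that fell with shAhR-1 and rose with shAhR-2 in both lines, against 3.24% of the 14680 genes tested in both.

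NR1D1 (chromosome 17, 40092787 to 40100725, minus strand) had the largest rise over a control of any member. Kelly held 10.6, 11.6 and 11.6 CPM in the libraries labelled shAhR-1, 42.3, 42.4 and 45.5 with shAhR-2 and 18.9, 16.3 and 17.97 with pLKO-GFP. It rose 2.44-fold with shAhR-2 (1.28 ± 0.063, adjusted p = 1.83e-24) and changed by −0.65 ± 0.072 where shAhR-1 was the label (adjusted p = 3.5e-11), with all 3 groups apart. BE2C held 8.40, 8.33 and 8.83 CPM in shAhR-1 cells, 13.5, 13.4 and 14.4 with shAhR-2 and 13.9, 12.1 and 10.8 with pLKO-GFP. It fell with shAhR-1 there (−0.53 ± 0.099, adjusted p = 2.99e-05), while the shAhR-2 and control libraries overlapped (0.18 ± 0.094, adjusted p = 0.0847). That BE2C value passed the threshold without the first control (0.27, adjusted p = 0.0181) and at a mean CPM filter of 1 (0.24, adjusted p = 0.025). NR1D1 shares 263 exon bases (9.49% of its exons) with THRA on the opposite strand, and the strand setting of the counting is not given in the sources used here. THRA was at −0.20 ± 0.053 and −0.29 ± 0.060 with shAhR-1 (BE2C, Kelly; both called) and at 0.06 ± 0.052 and −0.01 ± 0.058 with shAhR-2 (neither called).

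DBP (chromosome 19, 48630030 to 48637438, minus strand), a D-box activator that is a standard readout of CLOCK and BMAL1 activity, was higher in 3 of the 4 hairpin groups. It held 3.85, 3.80 and 4.03 CPM in BE2C shAhR-1, 3.96, 3.59 and 3.52 in BE2C shAhR-2 and 2.60, 2.44 and 2.33 in BE2C controls. Both BE2C hairpin groups lay above the controls, at 0.66 ± 0.16 (adjusted p = 0.000935) and 0.60 ± 0.16 (adjusted p = 0.00145). In Kelly it held 9.25, 8.78 and 8.37 CPM in the libraries labelled shAhR-1, 21.6, 23.3 and 20.9 with shAhR-2 and 10.5, 11.2 and 9.61 with pLKO-GFP. It rose 2.09-fold with shAhR-2 (1.07 ± 0.080, adjusted p = 4.24e-17). The fall in the libraries labelled shAhR-1 (−0.24 ± 0.088, adjusted p = 0.0157) was lost without the second control (−0.19, adjusted p = 0.0957) or without the third library labelled shAhR-1 (−0.21, adjusted p = 0.0692). DBP shares 661 exon bases (10.1% of its exons) with SPHK2 on the opposite strand, which was at −0.78 ± 0.072 and −0.13 ± 0.063 with shAhR-1 (BE2C, Kelly; the Kelly value not called) and at −1.003 ± 0.073 and 0.21 ± 0.061 with shAhR-2 (both called).

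BHLHE40 (chromosome 3, 4979116 to 4985323, plus strand), which encodes the E-box repressor DEC1, held 64 to 347 counts per library, and its values are the least precise. Kelly held 5.08, 4.52 and 5.60 CPM in the libraries labelled shAhR-1, 3.50, 4.30 and 4.02 with shAhR-2 and 7.67, 7.94 and 6.19 with pLKO-GFP. Every Kelly hairpin library lay below every control, at −0.52 ± 0.13 (adjusted p = 0.000456) and −0.89 ± 0.13 (adjusted p = 2.47e-08). BE2C held 2.85, 3.70 and 3.45 CPM in shAhR-1 cells, 2.49, 2.42 and 1.87 with shAhR-2 and 2.45, 1.56 and 2.69 with pLKO-GFP. BHLHE40 was not called in BE2C shAhR-2 (0.03 ± 0.21, adjusted p = 0.91). The BE2C rise with shAhR-1 (0.57 ± 0.20, adjusted p = 0.0189) was lost without the second control (0.37, adjusted p = 0.147), the second shAhR-1 library (0.49, adjusted p = 0.0866) or the third (0.54, adjusted p = 0.0606).

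**Figure D2:**
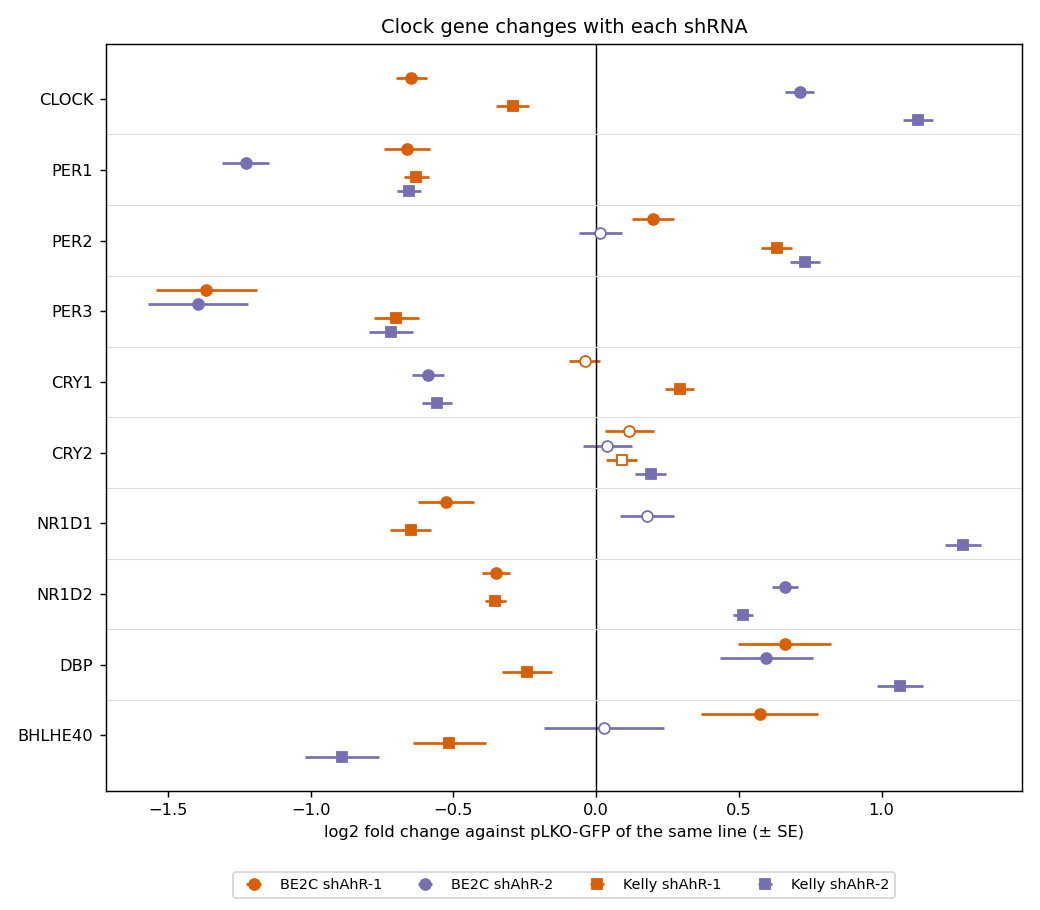
Log2 fold change (x axis, ± SE) of each clock gene (y axis) against pLKO-GFP of the same line, with shAhR-1 in orange, shAhR-2 in purple, BE2C as circles and Kelly as squares. Filled points were called at an adjusted p under 0.05, and CLOCK and NR1D2 have purple points to the right and orange points to the left of 0 in both lines.

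The 2 hairpins were also compared with each other within each line, in the fit that includes the controls. In BE2C, 7 of 10 members differed, 4 higher and 3 lower with shAhR-1, against 72.4% of all genes (35.9% higher, 36.5% lower). In Kelly 6 differed, 2 higher and 4 lower in the libraries labelled shAhR-1, against 77.4% (39.3% higher, 38.2% lower). CLOCK differed by −1.36 ± 0.053 in BE2C (adjusted p = 2.04e-21) and by −1.42 ± 0.054 in Kelly (adjusted p = 2.09e-29). NR1D2 differed by −1.01 ± 0.046 and −0.87 ± 0.036, and NR1D1 by −0.71 ± 0.097 and −1.93 ± 0.068 (BE2C, Kelly; all 4 called). CRY1 was higher with shAhR-1 than with shAhR-2 in both lines, by 0.55 ± 0.057 in BE2C and 0.85 ± 0.053 in Kelly. PER3 did not differ beyond its spread between the hairpins in BE2C (0.03 ± 0.19, adjusted p = 0.895) or in Kelly (0.02 ± 0.082, adjusted p = 0.85). PER1 was higher with shAhR-1 than with shAhR-2 in BE2C (0.57 ± 0.085, adjusted p = 4.64e-07) and missed the threshold in Kelly (0.03 ± 0.045, adjusted p = 0.595). DBP was lower with shAhR-1 than with shAhR-2 in Kelly (−1.31 ± 0.083) and not called in BE2C (0.06 ± 0.16). The BE2C difference of PER2 (0.18 ± 0.074, adjusted p = 0.0258) was lost when shAhR-1 library 1 or 2 was left out (adjusted p = 0.0526 and 0.094) and when shAhR-2 library 2 or 3 was left out (adjusted p = 0.0513 and 0.0568), and at a mean CPM filter of 1 (0.14, adjusted p = 0.0835). The BE2C difference of BHLHE40 (0.55 ± 0.20, adjusted p = 0.0167) was lost without the second shAhR-1 library (0.47, adjusted p = 0.0674) or the third shAhR-2 library (0.43, adjusted p = 0.0876). The Kelly difference of BHLHE40 (0.37 ± 0.13, adjusted p = 0.0109) was lost without the third library labelled shAhR-1 (adjusted p = 0.0712) or the first shAhR-2 library (adjusted p = 0.0667), at 0.30 in each case. PER2 and CRY2 were not called between the hairpins in Kelly (−0.10 ± 0.052, adjusted p = 0.0798, and −0.10 ± 0.054, adjusted p = 0.0837), but these calls depended on the setting. PER2 was called without the first library labelled shAhR-1 (−0.13, adjusted p = 0.0357), with RLE size factors (adjusted p = 0.0321), at a mean CPM filter of 1 (adjusted p = 0.0324), with DESeq2 (adjusted p = 0.0385), with halved counts (adjusted p = 0.0468) and in a fit of the hairpin groups alone (adjusted p = 0.035), at −0.11 to −0.12 in these settings. CRY2 was called with RLE size factors (adjusted p = 0.0357), at a mean CPM filter of 1 (adjusted p = 0.0362), with DESeq2 (adjusted p = 0.0385) and in the fit of the hairpin groups alone (adjusted p = 0.0436), at −0.12 in each.

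The difference between the lines was tested for each hairpin as the change in BE2C minus the change in Kelly. For shAhR-1, 6 of 10 members differed, 2 higher and 4 lower, against 35.7% of 17136 genes (17.5% higher, 18.2% lower). For shAhR-2, 8 of 10 differed, 2 higher and 6 lower, against 54.7% (28.8% higher, 25.8% lower). The largest was NR1D1 with shAhR-2, at −1.12 ± 0.11 (adjusted p = 3.15e-12), where the Kelly groups were far apart and the BE2C groups overlapped. PER2 differed with both hairpins, by −0.43 ± 0.090 (adjusted p = 0.000134) and −0.73 ± 0.089 (adjusted p = 9.87e-10), since its rise was larger in Kelly. PER3 differed by −0.66 ± 0.17 (adjusted p = 0.00201) and −0.70 ± 0.17 (adjusted p = 0.000475), since it fell further in BE2C. BHLHE40 differed by 1.09 ± 0.24 (adjusted p = 0.000193) and 0.90 ± 0.24 (adjusted p = 0.0014), as it fell in Kelly and did not fall in BE2C. DBP differed by 0.91 ± 0.16 with shAhR-1 (adjusted p = 1.17e-05) and by −0.49 ± 0.16 with shAhR-2 (adjusted p = 0.00833). CLOCK differed by −0.35 ± 0.079 (adjusted p = 0.000405) and −0.43 ± 0.074 (adjusted p = 1.76e-06), and CRY1 by −0.33 ± 0.076 with shAhR-1 (adjusted p = 0.00048). PER1 differed by −0.59 ± 0.086 with shAhR-2 (adjusted p = 8.64e-08), and its shAhR-1 value missed the threshold (−0.03 ± 0.085, adjusted p = 0.87). NR1D2 was at the threshold with shAhR-2 (0.13 ± 0.057, adjusted p = 0.0495) and kept its call only without the first BE2C shAhR-2 library or the second Kelly control, of all fits that left out 1 library (0.0917 to 0.150). CRY2 was called for neither hairpin (0.03 ± 0.098 and −0.17 ± 0.097), but for shAhR-2 it was at a mean CPM filter of 1 (−0.22, adjusted p = 0.0429).

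**Figure D3:**
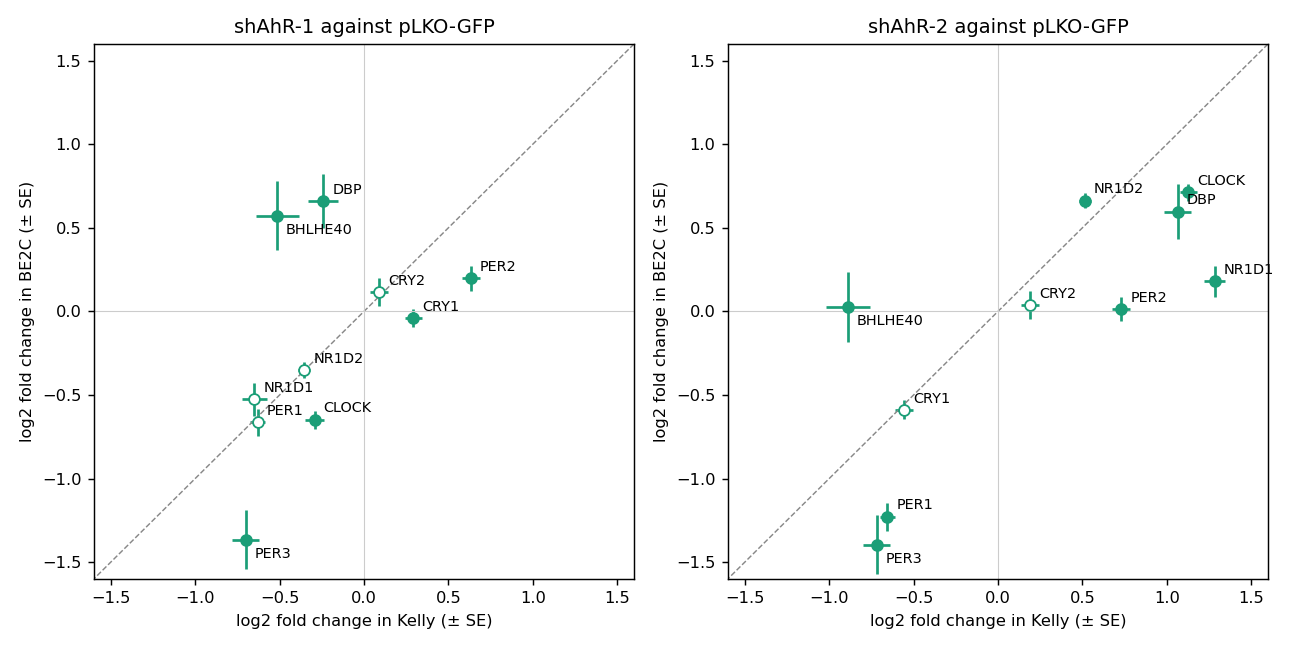
Log2 fold change against pLKO-GFP in Kelly (x axis, ± SE) and in BE2C (y axis, ± SE) for shAhR-1 (left) and shAhR-2 (right), with equality as a dashed line. Filled points are genes whose change differed between the lines at an adjusted p under 0.05, and NR1D1 with shAhR-2 lies farthest to the right of the line at 1.28 in Kelly and 0.18 in BE2C.

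Levels in the vector controls also differed between the lines. Of the 10 members, 1 was higher in BE2C controls than in Kelly controls, 8 were lower and 1 was not called, against 76.2% of genes called (37.2% higher and 39.0% lower). CLOCK was the member higher in BE2C, at 45.3 ± 2.93 CPM in BE2C controls and 27.9 ± 1.08 in Kelly controls (SD, n = 3 each; 0.70 ± 0.054, adjusted p = 3.12e-16). Its partner ARNTL was also higher, at 6.35 ± 0.459 and 1.91 ± 0.203 CPM (BE2C, Kelly; 1.73 ± 0.16, adjusted p = 1.57e-13). DBP was lower in BE2C by the widest margin, at 2.46 ± 0.134 and 10.4 ± 0.796 CPM (−2.08 ± 0.12, adjusted p = 1.74e-21), before BHLHE40 (−1.71 ± 0.17), PER3 (−1.67 ± 0.11), PER1 (−1.46 ± 0.058) and CRY2 (−1.15 ± 0.069). NR1D2 (−0.83 ± 0.041), NR1D1 (−0.53 ± 0.081) and PER2 (−0.48 ± 0.065) differed less, and CRY1 missed the threshold (0.11 ± 0.054, adjusted p = 0.0678). That call depended on the setting, since CRY1 was called higher in BE2C with RLE size factors (0.14, adjusted p = 0.0158), with no filter (0.19, adjusted p = 0.00174), at a mean CPM filter of 1 (0.18, adjusted p = 0.0025), with DESeq2 (0.14, adjusted p = 0.0128) and with halved counts (0.11, adjusted p = 0.0488). It was also called without the first BE2C control (0.14, adjusted p = 0.0366) or the first BE2C shAhR-1 library (0.11, adjusted p = 0.0484). The lines were counted in separate tables, so line and preparation cannot be told apart.

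**Figure D4:**
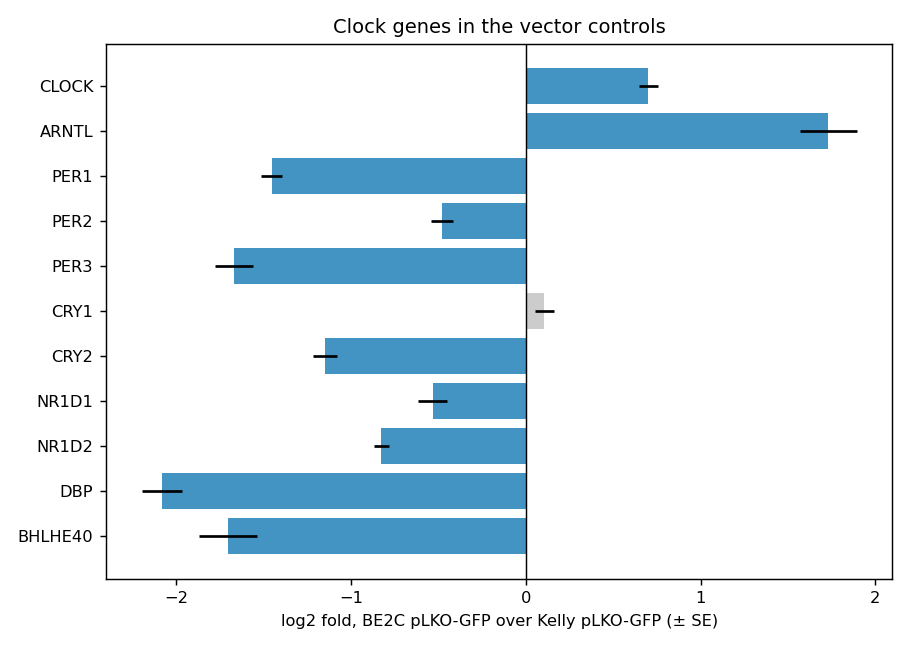
Log2 fold of BE2C pLKO-GFP over Kelly pLKO-GFP (x axis, ± SE) for the 10 members and ARNTL (y axis), with called genes in blue and the gene that was not called in grey. Bars of CLOCK and ARNTL point to the right, CRY1 is near 0 and the other 8 point to the left, with DBP longest at −2.08.

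Levels were set against each other per kilobase of the principal transcript. In BE2C controls CRY1 was highest at 13.1 ± 0.455 CPM per kilobase, then NR1D2 at 9.97 ± 0.0951, PER1 at 5.48 ± 0.525, NR1D1 at 4.42 ± 0.556, CLOCK at 4.40 ± 0.285, CRY2 at 3.27 ± 0.179, PER2 at 2.94 ± 0.245, DBP at 1.10 ± 0.0602, PER3 at 0.970 ± 0.0547 and BHLHE40 at 0.643 ± 0.171 (SD, n = 3). In that order the libraries of PER1 and NR1D1, of NR1D1 and CLOCK, and of CRY2 and PER2 overlapped. In Kelly controls NR1D2 was highest at 17.7 ± 0.677 CPM per kilobase, then PER1 at 15.0 ± 0.461, CRY1 at 12.2 ± 0.421, CRY2 at 7.27 ± 0.287, NR1D1 at 6.40 ± 0.477, DBP at 4.67 ± 0.357, PER2 at 4.10 ± 0.0576, PER3 at 3.09 ± 0.0703, CLOCK at 2.71 ± 0.105 and BHLHE40 at 2.09 ± 0.272. No neighbours overlapped there, and by this length CLOCK stood at place 5 in BE2C and at place 9 in Kelly. The order rests on the length chosen. All annotated exons together spanned 6544 bases for DBP, 5062 for CRY1 and 7002 for PER1. Their principal transcripts had 2229, 3267 and 4707 bases, while NR1D1 had 2772 either way. An order by the longer lengths was not made, and the annotation behind the counts is not given in the sources used here.

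Other genes of the clock were described from a list of 41, of which 38 were tested in BE2C and 39 in Kelly. In BE2C 4 rose and 18 fell with shAhR-1 (median −0.07), against 25.2% and 27.1% of all genes, and 12 rose and 24 fell with shAhR-2 (median −0.19), against 38.0% and 37.2%. In the Kelly libraries labelled shAhR-1 15 rose and 15 fell (median 0.03), against 29.6% and 31.0%, and in Kelly shAhR-2 14 rose and 17 fell (median −0.03), against 37.2% and 38.2%. With both hairpins in the same direction, 3 rose and 16 fell in BE2C, against 14.6% and 17.4% of all genes, and 6 rose and 9 fell in Kelly, against 12.9% and 14.3%. NOCT, a rhythmic phosphatase of nicotinamide dinucleotides, fell in both lines with shAhR-1 and shAhR-2, at −1.25 ± 0.10 and −0.93 ± 0.10 in BE2C and at −0.996 ± 0.086 and −0.65 ± 0.082 in Kelly. FBXW11, a subunit of the ubiquitin ligases that direct PER proteins to degradation, fell likewise, at −0.84 ± 0.045 and −2.35 ± 0.049 in BE2C and at −0.78 ± 0.043 and −1.98 ± 0.046 in Kelly. TIPIN, the partner of TIMELESS at replication forks, fell as well, at −0.57 ± 0.060 and −1.002 ± 0.061 in BE2C and at −0.55 ± 0.066 and −1.70 ± 0.071 in Kelly. USP2, a rhythmic deubiquitinase, fell in BE2C (−0.74 ± 0.14 and −0.69 ± 0.14). It was not among the up to 4 genes named for Kelly, but every hairpin library lay below every control there too. The Kelly means of USP2 were 5.79, 6.59 and 8.34 CPM (label shAhR-1, shAhR-2, control). BHLHE41, which encodes DEC2, the paralog of BHLHE40, rose in Kelly (0.58 ± 0.13 and 1.79 ± 0.12), where BHLHE40 fell.

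Further genes of the loop were picked out after their values were seen. CIART, a repressor of CLOCK and BMAL1, followed NR1D1 in Kelly, at −0.83 ± 0.083 in the libraries labelled shAhR-1 and 0.43 ± 0.075 with shAhR-2. It fell with both hairpins in BE2C (−0.99 ± 0.33 and −0.87 ± 0.32). CIART was low there, with means of 0.697, 0.749 and 1.38 CPM (shAhR-1, shAhR-2, control). Whether the values of these further genes hold without single libraries was not tested. NFIL3, the repressor that opposes DBP at D-boxes, changed like ARNTL in Kelly, by 0.86 ± 0.16 in the libraries labelled shAhR-1 and −1.06 ± 0.19 with shAhR-2. In BE2C NFIL3 was 0.21 ± 0.16 with shAhR-1 (not called) and 0.36 ± 0.16 with shAhR-2 (adjusted p = 0.0457). RORA, the activator that competes with the REV-ERB receptors for ROR elements, rose with shAhR-2 in BE2C (0.66 ± 0.12) and Kelly (1.11 ± 0.079). In Kelly shAhR-2, then, CLOCK, NR1D1, NR1D2 and RORA were higher while ARNTL, CRY1 and NFIL3 were lower. In the Kelly libraries labelled shAhR-1, CLOCK, NR1D1 and NR1D2 were lower while RORA, ARNTL, CRY1 and NFIL3 were higher. BE2C differed. With shAhR-2, CLOCK, NR1D2, RORA and NFIL3 were higher there, ARNTL and CRY1 were lower and NR1D1 was not called. With shAhR-1, CLOCK, NR1D1 and NR1D2 were lower in BE2C, and ARNTL, CRY1 and NFIL3 were not called.

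**Figure D5:**
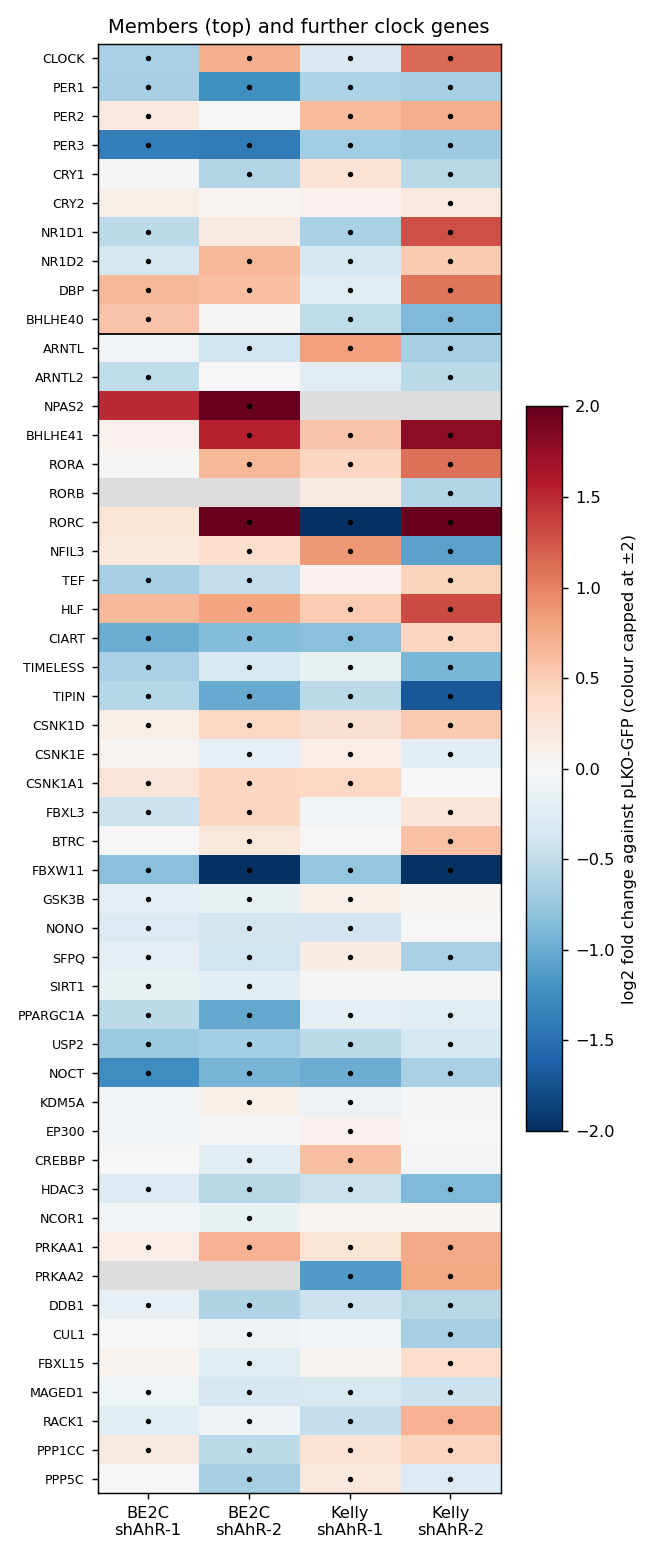
Log2 fold change against pLKO-GFP (colour, capped at ±2) of the 10 members (above the line) and the further clock genes (below it) with each hairpin and line (columns), with a dot where the adjusted p was under 0.05 and grey where a gene was not tested. FBXW11 and NOCT were lower in all 4 columns, and NR1D1 in Kelly is blue with shAhR-1 and red with shAhR-2.

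Among 15 further genes of the bHLH-PAS family and its coactivators, 11 were tested in BE2C and 12 in Kelly, and 4 rose and 2 fell with both hairpins in each line, against 14.6% and 17.4% of all genes in BE2C and 12.9% and 14.3% in Kelly. NCOA1, a coactivator with a bHLH-PAS region, rose with shAhR-1 and shAhR-2 in both lines, by 0.57 ± 0.049 and 1.35 ± 0.048 in BE2C and by 0.91 ± 0.040 and 1.27 ± 0.040 in Kelly. EPAS1, the hypoxia factor HIF-2α, fell in both, at −0.27 ± 0.035 and −0.44 ± 0.035 in BE2C and at −0.36 ± 0.026 and −0.52 ± 0.026 in Kelly. ARNT, the partner of the aryl hydrocarbon receptor, also fell in both. NCOA2 rose in BE2C (0.26 ± 0.047 and 0.55 ± 0.047), and NCOA3 rose in Kelly (0.28 ± 0.041 and 0.40 ± 0.041). Up to 4 genes were named per line, so naming in 1 line does not make a change particular to it. Mean NCOA2 in Kelly was 63.9, 77.4 and 59.0 CPM (label shAhR-1, shAhR-2, control). Mean NCOA3 in BE2C was 90.0, 110 and 85.4 CPM in that order.

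The genes whose levels ran most like each member were found over the 18 libraries, as the Pearson r of log2 CPM centred on the mean of each line. The libraries of a group share their construct, so r describes these libraries only. CLOCK ran closest to GFPT1 (r = 0.993), SCARB2 (0.991) and APLP2 (0.989), and NR1D2 to SLC38A2 (0.995), LCOR (0.994) and FHOD3 (0.992). PER1 ran closest to POLR3D (0.986), LIG3 (0.983) and ENO1 (0.979), PER3 to PAG1 (0.954), DNAJC11 (0.945) and HNRNPC (0.942), and PER2 to MYT1L (0.964), CADM1 (0.960) and EIF5A2 (0.948). CRY1 ran closest to MYB (0.986), DAZAP1 (0.986) and RABIF (0.986), and NR1D1 to EPB41L4A-AS1 (0.989), EIF3D (0.988) and RPL27 (0.988). DBP ran closest to NSG1 (0.973), GPSM1 (0.973) and HAGHL (0.973). BHLHE40 and CRY2 had no partner as close, with TCTA (0.865) and MRPL1 (0.805) first.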

How the data were processed

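The authors deposited raw counts per gene in 2 tables, 1 per line, with 39368 genes each. Per the labels' protocols, miRNeasy columns gave total RNA, and the RNA HyperPrep chemistry with RiboErase (depletion of ribosomal RNA) gave the libraries. Per the submitters' processing notes, CASAVA 1.8.2, STAR 2.7.9a and GRCh38.p7 were used. Tool, annotation and strand setting of the counting: not given in the sources used here. Even values made up 68.3% to 72.5% of the low counts (1 to 20) of a library, which a trial with halved counts addressed.

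Each line was fitted alone (9 libraries, 3 groups) with edgeR 4.0.16: filterByExpr, TMM, glmQLFit, glmQLFTest, and Benjamini-Hochberg adjustment over all genes tested. Genes were called at an adjusted p under 0.05. Line differences came from 1 fit of 18 libraries, which also set the CPM. SE is the fold change divided by the root of F. Lengths and locations are from GENCODE 29, and promoters from RefSeq. The fits were also run on simulated counts with few changed genes. Most genes were called in these data, so that run does not bear on the calls here.

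Members and lists were chosen with earlier results of these data known. All 10 members, AHR and ARNTL were named. From each further list, up to 4 genes per line were named: those called in the same direction with both hairpins, with a mean CPM of at least 5, by the largest smaller change. Up to 3 like genes were named per member, from log2 CPM with a prior count of 2. Alternatives were RLE size factors, no filter, a mean CPM filter of 1, a replicate block, DESeq2 1.42.0, halved counts, no mitochondrial genes, only the groups compared, and each library left out. R 4.3.3 and Python 3.11.15 were used.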

Additional observations from a re-analysis of the deposited data

Results flagged for a closer look

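The following members changed differently in the lines, by the interaction test of edgeR with Benjamini-Hochberg adjustment over 17136 genes; values are the log2 change in BE2C minus that in Kelly. With shAhR-1 they were CLOCK (−0.35), PER2 (−0.43), PER3 (−0.66), CRY1 (−0.33), DBP (0.91) and BHLHE40 (1.09). With shAhR-2 they were CLOCK (−0.43), PER1 (−0.59), PER2 (−0.73), PER3 (−0.70), NR1D1 (−1.12), NR1D2 (0.13), DBP (−0.49) and BHLHE40 (0.90). For shAhR-1, no fall of AHR was shown in the libraries of either line.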

How the results depend on the processing

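Counts of called members and of all genes stayed within 1.5 times their main value. This held for all 144 count values under other settings and all 216 count values without 1 library. Counts already close to their total could not rise past that limit. Of 720 member values under other settings, 690 kept their direction and side of the threshold, as did 1023 of 1080 without 1 library. Among the rest, 16 gained and 6 lost a call under other settings, and 4 gained and 32 lost one without 1 library. The sign turned for values near 0 that were not called: PER3 between the hairpins in Kelly (−0.0044 with RLE, −0.0017 at a mean CPM filter of 1, −0.0045 with DESeq2) and in BE2C (−0.013 at a mean CPM filter of 1), and the NR1D2 line difference with shAhR-1 (−0.010 with RLE, −0.020 with no filter, −0.014 at a mean CPM filter of 1, −0.010 with DESeq2). Without 1 library, signs turned for BE2C shAhR-2 PER2 (−0.055 to 0.058), CRY2 (−0.0088 to 0.086) and BHLHE40 (−0.18 to 0.17), PER3 between the hairpins in BE2C (−0.16 to 0.16) and Kelly (−0.025 to 0.069), and the shAhR-1 line differences of PER1 (−0.10 to 0.025), CRY2 (−0.021 to 0.086) and NR1D2 (−0.021 to 0.045). The NR1D2 line difference with shAhR-2 was no longer called with RLE (0.12, adjusted p = 0.0742), DESeq2 (0.12, adjusted p = 0.0701), no filter (0.053, adjusted p = 0.656), a mean CPM filter of 1 (0.082, adjusted p = 0.195) or no mitochondrial genes (0.12, adjusted p = 0.0643); the cause was not tested. Same-numbered libraries did not deviate together (r from −0.014 to 0.024 in BE2C and −0.011 to 0.020 in Kelly, 0 of 9 pairs over 0.1 in each). With a replicate block, 8110 (BE2C shAhR-1), 11738 (BE2C shAhR-2), 9495 (Kelly, labelled shAhR-1) and 11869 (Kelly shAhR-2) genes were called, with 8, 6, 9 and 10 members. BHLHE40, DBP and PER3 in BE2C have the fewest counts, which limits their precision.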
